A study of Mus musculus with 8 samples.

Results

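The transcripts described here gave a low signal in each of 4 normal mouse livers and a high signal in each of 4 liver tumors that carry a beta-catenin allele. They were chosen by rank within each array: a probe had to lie under the 75th percentile of intensity in all 4 normal livers and over the 85th percentile in all 4 tumors. Of 45281 probes, 35 (0.0773%) met this rule. The platform annotation gives 1 gene for 30 of them and none for the other 5, and these 30 probes stand for 25 genes, 5 of which have 2 member probes. Because the rule uses the difference between tumor and normal liver, that difference is given below as a description and carries no test.

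All mice were of the C57BL/6N background. The normal livers came from wild-type mice and the tumors from mice of genotype Ctnnb1 flox(ex3)/+. RNA of each sample was hybridised to 1 Illumina expression array. The recombinase that acts on the floxed allele, the age and sex of the mice, and whether the tumors came from separate mice are not given in the labels. Genotype and tissue state changed together between the groups, so their parts cannot be told apart. In RNA of whole tissue, a change in the share of cells that express a transcript and a change in the RNA per cell cannot be told apart either.

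Beta-catenin is held low in resting hepatocytes by a complex that phosphorylates it for destruction, and exon 3 of Ctnnb1 encodes the sites that are phosphorylated. Protein made without that exon persists, enters the nucleus and acts with TCF/LEF factors on Wnt target genes. In the liver, Wnt signalling around the central veins maintains pericentral genes such as Glul, which encodes glutamine synthetase, and mutations that stabilise beta-catenin are common in liver tumors.

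The arrays differed somewhat in brightness. The median intensity was 72.3 to 79.4 on the normal liver arrays and 64.0 to 69.2 on the tumor arrays, and of the tumor arrays that of tumor 1 was the brightest. The 75th percentile lay between 163 and 195 on the normal liver arrays, and the 85th between 393 and 493 on the tumor arrays. The rule works on ranks within an array, so a difference in brightness does not alter membership. The brightest of 4 Ctnnb1 probes, whose positions relative to exon 3 are not given, read 9888, 6576, 9508 and 8452 in normal livers 1 to 4 and 9532, 5536, 7764 and 6087 in tumors 1 to 4 (limma adjusted p = 0.684), and the other 3 did not pass the test either (limma adjusted p = 0.129 to 0.316). Hepatocyte genes such as Apoa1 and Ttr, which encode plasma proteins, read 18391 or more in every sample, while others on the list were dim (Fgb, a fibrinogen chain, 58.0 to 101). The summed raw intensity of 23 hepatocyte genes was 485401 to 498441 in normal liver and 266169 to 304526 in tumors. The 99th percentile of intensity was also lower on the tumor arrays, at 8237 to 10010 beside 10695 to 13771 on the normal liver arrays. After quantile normalisation the median log2 difference of these 23 genes was -0.21, beside -0.02 over all tested genes. The brighter of 2 probes of the Y-linked gene Eif2s3y read 1465 or more in all 8 samples, and the other 53.7 to 86.6. On 2 of 4 probes of Xist, the RNA of the inactive X chromosome, normal liver 1 stood apart, at 132 and 136 against 42.7 to 57.2 in the other 7 samples. Leaving normal liver 1 out kept all 35 members and added 4 probes. Normal liver 4 carried skeletal muscle transcripts (Acta1, skeletal actin, 9055 against 53.1 to 61.8 in the other normal livers). Leaving that sample out kept all 35 members and added 2 probes, both of Vldlr, the very low density lipoprotein receptor.

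The members started near the background of the arrays. Their median intensity over probes was 79.7 to 87.9 on the 4 normal liver arrays, at a median rank of 55.9% to 60.1% of the probes there. For 7 of the 35, all 4 normal livers lay under the array's own median. For 11 of the 35, at least 1 normal liver lay over the 70th percentile. In the tumors the median over members was 1259, 646, 940.2 and 964 in tumors 1 to 4. All 35 exceeded the 85th percentile in every tumor by construction. Beyond that limit, 11 exceeded the 90th percentile in every tumor, 3 the 95th and 1 the 99th. The ratio of the median tumor to the median normal intensity ran from 4.02 to 158, with a median of 11.3. No background was subtracted here, and any that remains in the deposited intensities makes such a ratio understate the change of a transcript near it. The lowest tumor exceeded the highest normal liver by 2.62 to 92.8 times (median 6.66), and by at least 4 times at 28 members. The lowest upper limit on a tumor array (393) is above the highest lower limit on a normal liver array (195). The rule thus forces the tumors above the normal livers at every member. Over all probes, the 4 tumors lay wholly above the 4 normal livers at 3.51%.

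**Figure D1:**
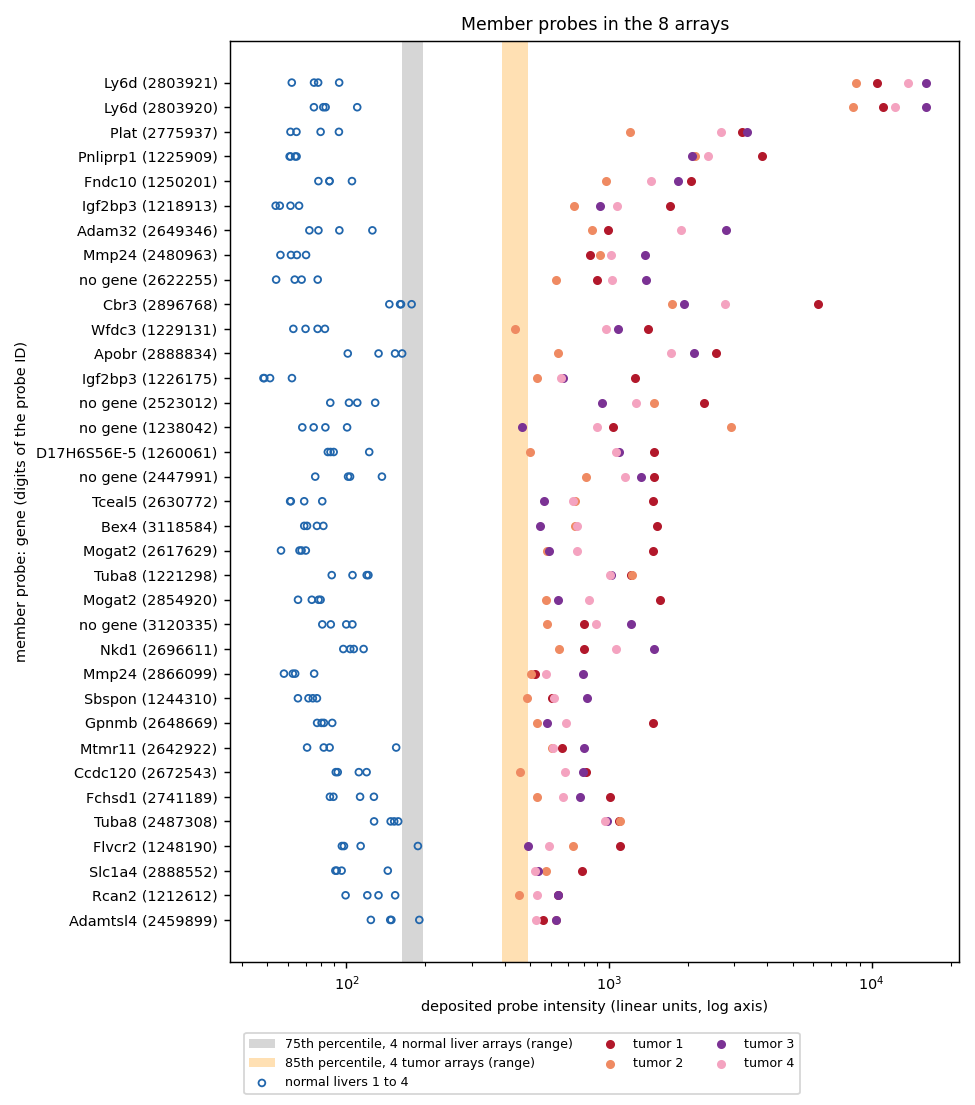
Deposited intensity (log axis) of the 35 member probes in the 4 normal livers (open blue circles) and the 4 tumors (filled circles, 1 colour per tumor), ordered by the ratio of group medians. Grey and orange bands are the ranges of the 75th percentile on normal liver arrays and the 85th on tumor arrays. Both Ly6d probes stand apart at 8472 or more in every tumor, and most others lie between 439 and 3817 in the tumors.

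Nkd1 was the 1 member among 33 measured Wnt feedback and target genes, where 25 of 19057 genes on the array had a member probe. It encodes a Dishevelled-binding inhibitor that Wnt signalling induces as negative feedback. Its intensity was 103, 97.3, 116 and 107 in normal livers 1 to 4 and 806, 646, 1485 and 1064 in tumors 1 to 4. All tumors were at least 5.56 times above the highest normal liver, and tumor 3 was the highest. A second Nkd1 probe did not follow: it read 63.1 to 86.7 in normal liver and 71.3 to 95.9 in tumors, so the groups overlapped there.

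The other Wnt target genes that were higher in tumors began from a higher normal level or ended below the upper limit. Of 24 tested without Nkd1, 13 were higher and 2 lower (limma adjusted p under 0.05, 1 probe per gene), against 15.3% of all 11852 genes higher and 15.3% lower (13.2% and 14.2% of the 22640 probes tested). The median log2 difference of these 24 was 0.89, beside -0.02 over all tested genes. Lgr5, the R-spondin receptor, missed membership narrowly, at the 84.8th percentile in tumor 2. Its intensities were 135, 122, 133 and 125 in normal livers 1 to 4 and 514, 392, 493 and 420.5 in tumors 1 to 4 (log2 difference 1.88, limma adjusted p = 2.83e-06). Axin2, the scaffold of the destruction complex and a classical feedback gene, was over the lower limit in 3 of 4 normal livers, at 166 to 200.4 in all, and reached 781 to 1378 in tumors (log2 difference 2.59, limma adjusted p = 1.44e-05). Sp5, a Wnt-induced transcription factor, went from 335 to 554 in normal liver to 1899 to 3090.1 in tumors (log2 difference 2.61, limma adjusted p = 6.04e-06). The 2 that fell were Dkk4, a secreted Wnt antagonist, and Prox1, a homeobox factor of hepatocytes, by 1.26 and 0.56 on the log2 scale. Of 36 tested components of the pathway itself, 6 were higher and 7 lower (2 and 4 without tumor 4, 1 higher without normalisation between arrays). None of the 45 measured was a member, beside 25 of 19057 genes on the array.

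Slc1a4 was the 1 member among 32 measured pericentral genes, beside 25 of 19057 genes on the array. It encodes a neutral amino acid transporter. Its intensity was 91.8, 95.9, 144 and 90.7 in normal livers 1 to 4 and 791, 577, 536 and 522 in tumors 1 to 4. The groups were well apart and the tumors were close to each other, 1.52 times from lowest to highest. Most of the list is bright in normal liver and could not meet the rule. In the limma fit 17 of 29 tested pericentral genes other than Slc1a4 were higher and 0 lower at an adjusted p under 0.05 (median log2 difference 1.09), and under median scaling 2 were lower. Lgr5, Axin2 and Tbx3 are also on the Wnt target list and count as higher in both lists. Of 22 tested periportal genes, 1 was higher and 16 lower (median log2 difference -1.85). Over all tested genes 15.3% were higher and 15.3% lower. Glul rose from 2556 to 3323 in normal liver to 12440.5 to 15649.6 in tumors (log2 difference 2.62, limma adjusted p = 6.25e-07). Gstm3, a glutathione transferase, missed membership only through normal liver 1, at 270.4 there, 84.8 to 121 in the others and 2070.0 to 2936 in tumors (limma adjusted p = 1.02e-05). Cyp2c55, a cytochrome P450, missed it the same way, at 556 in normal liver 1, 82.2 to 162 in the others and 1323 to 3667 in tumors (limma adjusted p = 6.02e-04).

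**Figure D2:**
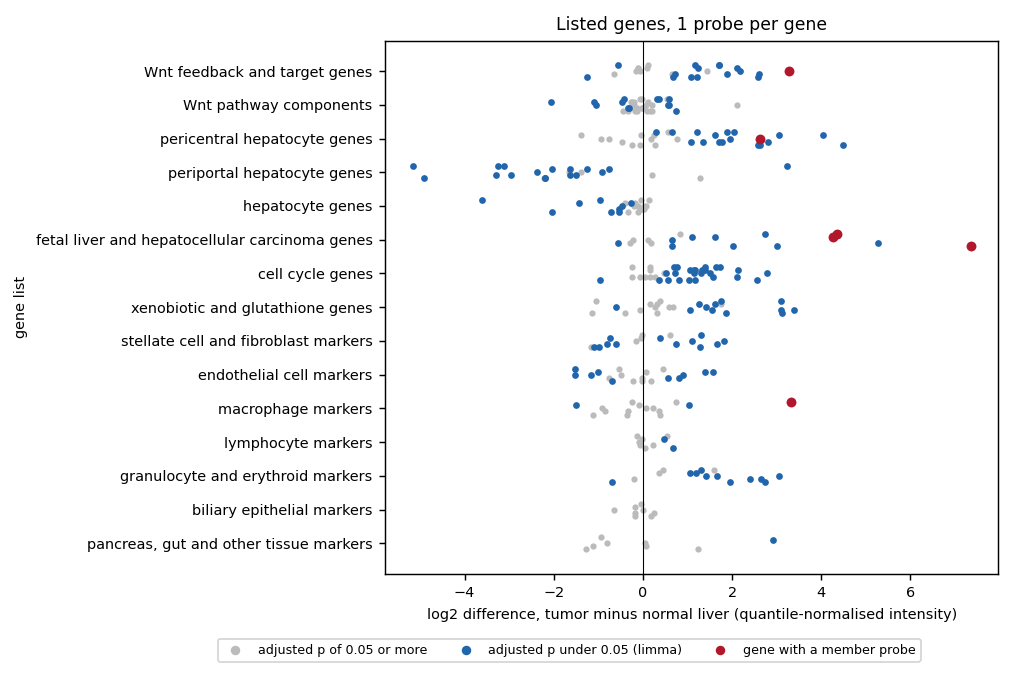
Log2 difference between tumor and normal liver (quantile-normalised intensity) for every tested gene of the 15 lists, 1 probe per gene. Blue points passed an adjusted p of 0.05 in the limma fit, grey points did not, and red points are genes with a member probe, which the rule chose for this difference. Members appear in 4 lists, and 16 of 22 periportal genes lie to the left as blue points.

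Ly6d gave the highest tumor signal of all members on both of its probes. It encodes a small GPI-anchored surface protein of the Ly6 family, best known from keratinocytes and early lymphoid cells. The first probe, ILMN_2803921, read 75.2, 78.0, 93.8 and 61.9 in normal livers 1 to 4 and 10525, 8702, 16063 and 13738 in tumors 1 to 4. The second, ILMN_2803920, read 83.3, 81.6, 109.9 and 75.2 in normal liver and 11041, 8472, 16157 and 12322 in tumors. Both probes put the tumors in the same order, with tumor 3 highest and tumor 2 lowest. The summed intensity of 15 lymphocyte markers overlapped between the groups, at 4145 to 4761 in normal liver and 4200.2 to 4926 in tumors. Of 10 tested 2 were higher and 0 lower (0 higher without tumor 4), beside 15.3% of all tested genes in each direction.

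Several members encode proteases or proteins of the extracellular space. Plat, tissue plasminogen activator, read 64.5, 61.2, 93.6 and 79.7 in normal livers 1 to 4 and 3213, 1199, 3359.8 and 2664 in tumors 1 to 4. Mmp24, a membrane-type matrix metalloproteinase, had 2 member probes. The brighter read 64.7, 56.0, 61.5 and 70.2 in normal liver and 849, 922, 1367 and 1019 in tumors. Both Mmp24 probes were highest in tumor 3 and varied little between tumors, 1.61 and 1.58 times. Adam32, an ADAM family protein known chiefly from testis, read 93.9, 126, 78.2 and 72.2 in normal liver and 987, 860.4, 2796 and 1887 in tumors. Tumor 3 exceeded tumor 2 by 3.25 times at this probe. Wfdc3, a protein with whey acidic protein domains, ranged from 62.8 to 82.8 in normal liver and from 439 to 1405 in tumors. Sbspon, a secreted protein with a thrombospondin domain, went from 65.3 to 77.2 to 485 to 824. Adamtsl4, a microfibril-associated ADAMTS-like protein, had the smallest ratio of medians of all members (4.02), at 124 to 189 in normal liver and 529 to 629 in tumors.

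Igf2bp3, an oncofetal RNA-binding protein that binds Igf2 mRNA, was switched on in every tumor on 2 of its 5 probes, while Igf2 itself was not. The brighter Igf2bp3 probe read 66.0, 55.7, 61.2 and 53.7 in normal livers 1 to 4 and 1709, 734, 924 and 1074 in tumors 1 to 4. The second went from 48.3 to 62.0 in normal liver to 534 to 1259 in tumors. Both were highest in tumor 1 and lowest in tumor 2. The further Igf2bp3 probes stayed under the upper limit in every tumor, with ratios of medians of 2.80, 1.85 and 1.10. At the last of them the groups overlapped. Igf2, the fetal growth factor, read 153, 118, 104 and 126 in normal livers 1 to 4 and 21987, 11319, 127 and 9375 in tumors 1 to 4. Tumor 3 thus lay within the normal range for Igf2, where Igf2bp3 reached 924. Afp, alpha-fetoprotein, fell short only in tumor 3, at 334 there against 483 to 1238 in the other tumors and 62.7 to 90.4 in normal liver. The fetal liver and carcinoma list held 3 members among 24 measured genes, Igf2bp3, Ly6d and Cbr3, beside 25 of 19057 genes on the array. Of its other 14 tested genes, 8 were higher and 1 lower (limma adjusted p under 0.05; median log2 difference 0.74), beside 15.3% of all genes in each direction. The lists were drawn up with earlier results of these data known, so these counts are descriptions.

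Members of lipid and carbonyl metabolism included transcripts usually found in other organs. Pnliprp1, pancreatic lipase-related protein 1, read 64.6, 60.7, 63.8 and 61.2 in normal livers 1 to 4 and 3817, 2121, 2069.8 and 2384 in tumors 1 to 4. Other pancreatic transcripts of the fixed list did not share this pattern. The probes of Cpa1, Ctrb1, Clps, Try4 and Prss2 (pancreatic proteases and colipase) read 45.6 to 78.4 in all 8 samples. Cela1, an elastase, was high in every sample, at 1038 to 3024 in normal liver and 1886 to 10110.2 in tumors, and was highest in tumor 3 (limma adjusted p = 0.14). Mogat2, the monoacylglycerol acyltransferase of intestinal fat absorption, had 2 member probes, at 56.3 to 79.7 in normal liver and 577 to 1558 in tumors. Both were highest in tumor 1 and at 577 to 841 in the other tumors. Cbr3, a carbonyl reductase, had the smallest margin to the rule: its highest normal liver stood at the 74.7th percentile. It read 177, 160.0, 161 and 146 in normal livers 1 to 4 and 6268, 1734, 1936 and 2764 in tumors 1 to 4, so it was among the brightest members in tumors and not the dimmest in normal liver. Apobr, a receptor for apolipoprotein B, ranged from 101 to 163 in normal liver and from 639 to 2559 in tumors. Flvcr2, a membrane transporter, had the smallest gap of all members, 2.62 times, at 96.0 to 187 in normal liver and 489 to 1097 in tumors.

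X-linked genes made up 3 of the 25, beside 3.73% of the genes annotated on the array. Bex4 and Tceal5 belong to the BEX/TCEAL family of small nuclear and cytoplasmic regulators, and they are neighbours on the X chromosome in RefSeq's GRCm38.p6 annotation, with 1 protein-coding gene (Tceal8) between them. Bex4 read 81.7, 70.8, 77.2 and 69.0 in normal livers 1 to 4 and 1529, 743, 544 and 754 in tumors 1 to 4. Tceal5 read 61.0, 69.0, 61.4 and 80.9 in normal liver and 1474, 739.9, 566 and 732 in tumors. Both had tumor 1 highest and tumor 3 lowest. The third, Ccdc120, a coiled-coil protein, went from 91.1 to 119 to 456 to 819, with tumor 2 lowest. Igf2bp3 and Gpnmb, on chromosome 6, also had 1 protein-coding gene between them (Malsu1), and both were highest in tumor 1 and lowest in tumor 2.

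Gpnmb, a transmembrane glycoprotein known from macrophages and melanocytes, was the member that other macrophage markers could be set against. It read 88.3, 77.3, 82.1 and 80.4 in normal livers 1 to 4 and 1467, 532, 579.7 and 684 in tumors 1 to 4. The summed intensity of the 18 measured macrophage markers, Gpnmb included, was 16535 to 31522 in normal liver. It was 32284, 31609, 11701 and 18080 in tumors 1 to 4. Tumor 3 thus had the lowest sum of all samples and a Gpnmb level above that of tumor 2. Vsig4 and Clec4f, defining markers of Kupffer cells, read 328 and 187 in tumor 3, beside 2306 to 3933 and 1066 to 1980.3 in normal liver, and neither passed the test over all tumors. Their part in the Gpnmb signal was not tested. Of the other 14 macrophage markers tested, 1 was higher (Trem2) and 1 lower (Marco) by limma at an adjusted p under 0.05. Over all tested genes the share was 15.3% in each direction.

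The remaining named members differed in how even the tumors were. Tuba8, an alpha-tubulin isotype, was among the steadiest of all members, on 2 probes. The first read 119, 105, 87.9 and 121 in normal livers 1 to 4 and 1218, 1223, 1022 and 1007 in tumors 1 to 4. Highest and lowest tumor differed by 1.21 and 1.15 times at its probes. Mtmr11, a myotubularin-related protein, went from 70.8 to 155 in normal liver to 607 to 802 in tumors, and Rcan2, a regulator of calcineurin, from 99.2 to 153 to 456 to 638. Fndc10, a protein with a fibronectin domain, read 78.2 to 105 and 971 to 2052. Fchsd1, an F-BAR protein that binds curved membranes, read 86.5 to 127 and 532 to 1011, and D17H6S56E-5 read 84.9 to 122 and 498 to 1481. The 5 probes without a gene read 54.0 to 136 in normal liver. Among them ILMN_1238042 was the most uneven of all members, at 1032, 2906, 466 and 901 in tumors 1 to 4, or 6.23 times from lowest to highest.

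Members varied more between tumors than other bright probes did, but those were not chosen for a difference from normal liver. Other probes raised in tumors were not compared. The highest tumor exceeded the lowest by a median of 2.21 times over the 35 members (range 1.15 to 6.23), beside 1.39 times over the 6030 other probes above the 85th percentile in every tumor. Without tumor 4 the median stayed at 2.21, and without tumors 1, 2 and 3 in turn it was 1.57, 1.53 and 1.82. Between normal livers the members spread by a median of 1.34 times, where other probes under the lower limit spread by 1.22 times. Tumor 2 was the lowest of tumors 1 to 3 at 24 of 35 members by raw intensity, and at 20 after quantile normalisation. In tumor 2 the median member stood at 0.779 times its own tumor median, while the other bright probes there stood at 0.965 times. In tumor 1 the corresponding values were 1.20 and 1.15.

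Tumors 1 and 3 led different members. At 11 members tumor 1 exceeded the next of tumors 1 to 3 by at least 1.5 times, and at 6 members tumor 3 did. After quantile normalisation these counts were 8 and 7, and tumor 1 was highest at 16 members in place of 20. The genes that tumor 1 led by that factor on both scales were Bex4, Cbr3, Gpnmb, Igf2bp3, Mogat2 and Tceal5, and those that tumor 3 led on both were Adam32, Ly6d and Nkd1. Of the 14 Wnt target genes higher in tumors, Nkd1 included, 7 were highest by raw intensity in tumor 3, among them Axin2, Lef1 and Nkd1. The other 7 were highest in tumor 1, the brightest tumor array, among them Lgr5, Sp5 and Tbx3. By rank within the array Sp5 and Tbx3 stayed highest in tumor 1. Lgr5 ranked higher in tumor 3 (86.4%) than in tumor 1 (85.4%), and Ccnd1 higher in tumor 2 (97.7%) than in tumor 1 (97.2%). Of 25 cell cycle genes that rose, 23 were highest in tumor 3. At 31 of 35 members tumor 4 fell inside the span of the other tumors. It was the lowest tumor at the other 4, both Tuba8 probes, Slc1a4 and Adamtsl4, where the tumors were close together. How often tumor 4 fell inside that span at other probes was not counted. Whether the RNA of tumor 4 is a mixture of the others was not tested. The rule without tumor 4 gave the same 35 probes.

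**Figure D3:**
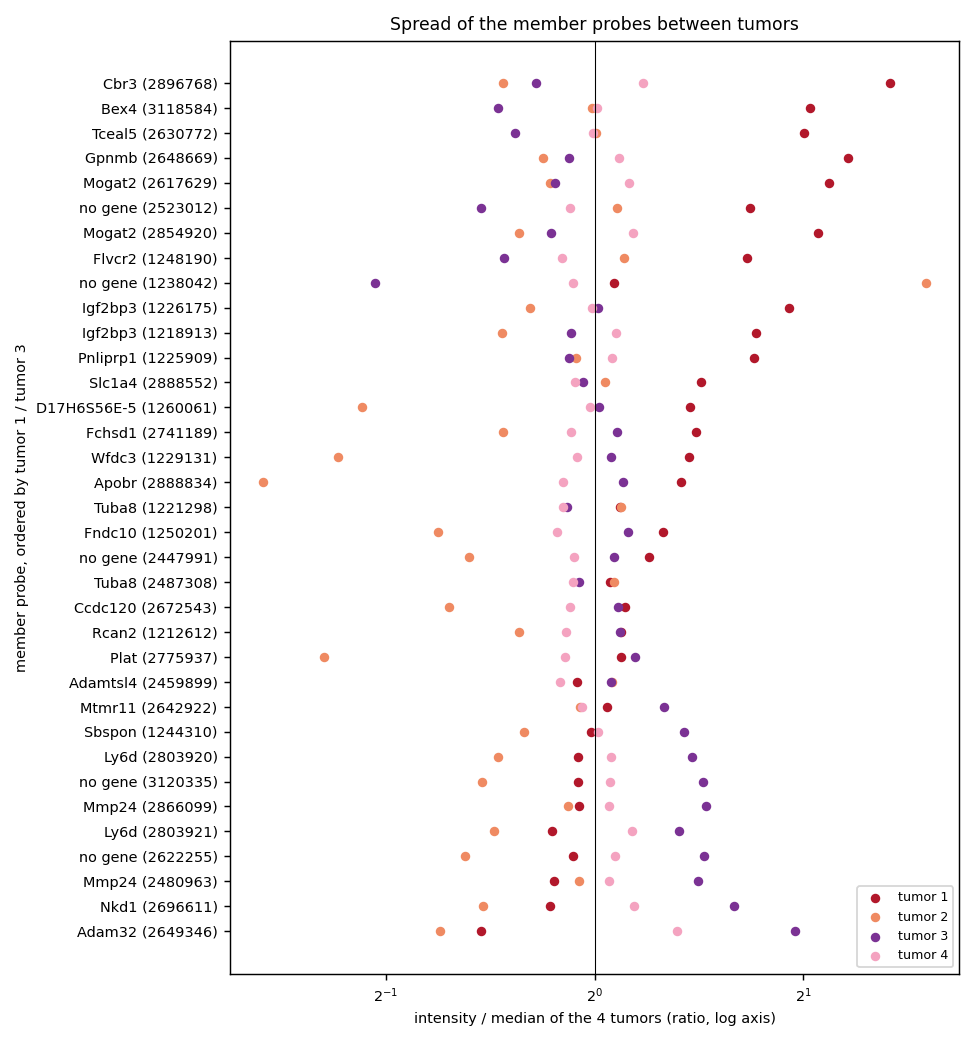
Intensity of each member probe in tumors 1 to 4, divided by its median over the 4 tumors (log axis), ordered by the ratio of tumor 1 to tumor 3. The ordering itself places members high in tumor 1 at the top and those high in tumor 3 at the bottom. Tumor 2 is the lowest of tumors 1 to 3 at 24 of 35 on this raw scale, and at 20 after quantile normalisation.

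The rule was also applied with samples left out, and the probes it chose were read there. Tumors 1 to 3 were left out in turn together with tumor 4, whose independence of them is not established. The probes chosen by the 4 normal livers and the other tumor pair numbered 41, 50 and 54, and 35 of them lay over the 85th percentile in the tumor left out. These 35 are the members each time, because such a probe meets the rule without tumor 4. They are 85.4% of the probes for tumor 1 and 64.8% for tumor 3, and 35 of 50 for tumor 2, where 15% of all probes lie by definition. That 15% is not a baseline for the chosen probes, which were already high in the other tumors. When each normal liver was left out, 35 of 37 to 40 probes (87.5% to 94.6%), again the members, lay under the 75th percentile there. By definition 75% of all probes lie there, but the chosen probes were already low in the other normal livers. The chosen probes that were not under it included Fgf21, a hormone of fasting, at 293 in normal liver 2 against 78.2 to 116 in the others. Cdkn1a, a cell cycle inhibitor, at 304 in normal liver 2, was another. Of the 162 probes that were under the lower limit in every normal liver and over the upper limit in at least 1 tumor, 53 were on in 1 tumor, 43 in 2, 31 in 3 and 35 in all 4.

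The limits cut through a gradual series of values. The 3 members with the least margin were Cbr3 and Adamtsl4, through normal livers at the 74.7th and 74.6th percentiles, and the dimmer Mmp24 probe, through tumor 2 at the 85.5th. The 3 probes just outside were those of Spats2l at the 84.97th, Adgrg2 at the 84.8th and Lgr5 at the 84.8th percentile in tumor 2. Their ratios of medians, 4.69, 6.75 and 3.53, overlapped those of the members.

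Other probes of the same genes differed widely from the member probe. For 15 of the 25 genes the array holds 26 further probes. Of these, 11 had all 4 tumors above all 4 normal livers, beside 3.51% of all probes, and 7 had a ratio of medians of at least 2. The share of all probes with such a ratio was not counted. The widest gaps were at Cbr3 (90.9 to 116 in normal liver and 399 to 1478 in tumors, over the upper limit in 3 of them), Bex4 (63.6 to 70.3 and 279 to 449) and Rcan2. A further Rcan2 probe read 190.1 to 270.1 in normal liver and 952 to 1362 in tumors, over the 75th percentile in every normal liver and 5.46 times higher in tumors by the medians. A further Mmp24 probe was over the 75th percentile in all 4 normal livers, at 407 to 609, and read 669 to 863 in tumors. For Gpnmb, Plat, Wfdc3, Tuba8, Sbspon, Fchsd1, D17H6S56E-5 and Nkd1 no further probe reached a ratio of 1.3. Which transcripts each probe detects was not analysed here, and for these genes the low and high levels were seen on the member probes.

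**Figure D4:**
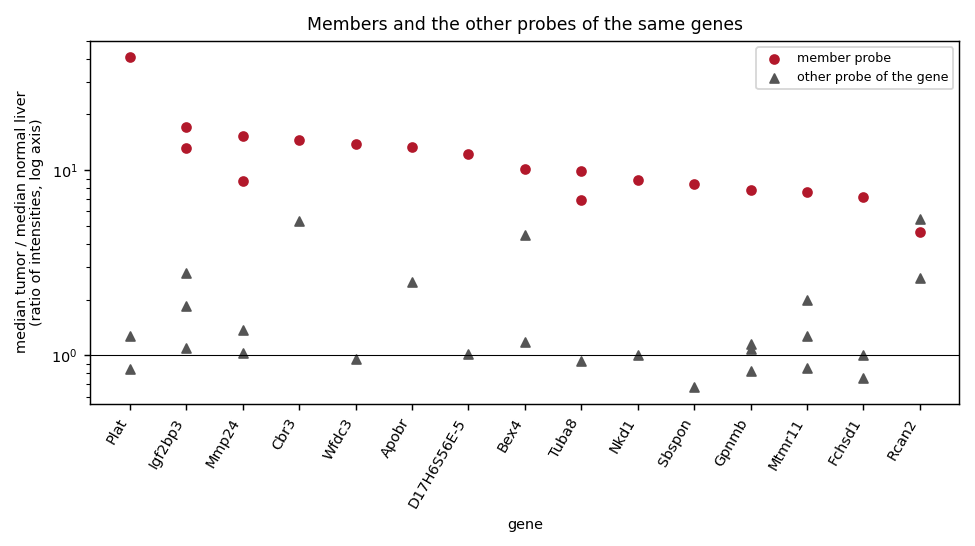
Ratio of the median tumor to the median normal liver intensity (log axis) for member probes (red circles) and the other probes (grey triangles) of the 15 genes that have both. Rcan2, Cbr3 and Bex4 have a further probe above 4, and 19 of the 26 further probes lie under 2.

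Promoters were read for what members share beyond their levels. RefSeq's table for GRCm38.p6 holds windows of 250 bases before to 50 after the start for 18 of the 25 genes, at annotated starts that can lie inside the gene: 11 of 22 windows are at its outermost 5′ end and 3 lie over 1000 bases inside it. The core recognised by TCF/LEF factors, CTTTGAA or CTTTGAT on either strand, occurred in 1 of the 18 (5.56%), beside 8.64% of the 15207 genes on the array with a window. The single match was in Mtmr11, whose window is shown with the core in capitals, 58 bases before that start, which is 21 bases inside the gene's outermost 5′ end (chr3:96161720-96162019, plus strand):
Mtmr11: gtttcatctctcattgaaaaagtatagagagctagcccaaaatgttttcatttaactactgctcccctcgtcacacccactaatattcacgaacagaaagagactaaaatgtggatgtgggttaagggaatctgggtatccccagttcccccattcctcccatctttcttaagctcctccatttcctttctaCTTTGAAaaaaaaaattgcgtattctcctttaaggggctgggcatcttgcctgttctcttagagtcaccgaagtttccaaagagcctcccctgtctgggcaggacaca
The window of Nkd1, the Wnt feedback gene among the members, does not hold these letters. It surrounds a start 6291 bases inside the gene's outermost 5′ end, and the sequence at that end was not searched. It is shown with each CG in capitals, since members differed widely in this dinucleotide (chr8:88527383-88527682, plus strand):
Nkd1: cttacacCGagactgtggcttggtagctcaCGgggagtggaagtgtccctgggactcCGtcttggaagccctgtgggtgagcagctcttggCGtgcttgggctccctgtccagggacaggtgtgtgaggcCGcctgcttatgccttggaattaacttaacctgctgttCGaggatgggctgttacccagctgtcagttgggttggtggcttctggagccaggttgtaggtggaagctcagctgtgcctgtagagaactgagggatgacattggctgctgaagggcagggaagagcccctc
Taking the richest window of each gene, CG occurred 3 to 44 times in the members' windows, with a median of 10.5 beside 16 for all genes on the array with a window. At least 20 were found in 7 of 18 members (38.9%) and in 42.2% of genes on the array. The richest and a poorest window belong to Mmp24 (chr2:155775092-155775391, plus strand) and Wfdc3 (chr2:164743218-164743517, minus strand), again with CG in capitals. The Mmp24 window is at the gene's outermost 5′ end, and that of Wfdc3 is 2727 bases inside it:
Mmp24: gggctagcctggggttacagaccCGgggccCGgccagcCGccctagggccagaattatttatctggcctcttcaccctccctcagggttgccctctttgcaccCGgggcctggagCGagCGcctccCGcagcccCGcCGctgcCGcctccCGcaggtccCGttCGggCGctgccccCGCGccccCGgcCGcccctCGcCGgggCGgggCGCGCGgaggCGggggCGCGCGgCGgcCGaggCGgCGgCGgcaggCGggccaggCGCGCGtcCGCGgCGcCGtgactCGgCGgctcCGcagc
Wfdc3: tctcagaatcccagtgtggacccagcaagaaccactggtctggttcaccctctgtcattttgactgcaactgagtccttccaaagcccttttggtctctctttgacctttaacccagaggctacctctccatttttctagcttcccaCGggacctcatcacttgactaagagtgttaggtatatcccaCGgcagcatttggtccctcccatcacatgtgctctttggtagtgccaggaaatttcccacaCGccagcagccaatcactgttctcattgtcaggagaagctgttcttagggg
Member probes of both genes met the rule in all 4 tumors, with 44 CG in the window of Mmp24 and 3 in that of Wfdc3. Further probes of both genes did not meet it.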

How the data were processed

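RNA of 4 tumors and 4 normal livers was measured on Illumina arrays. The deposited raw table holds linear probe intensities; BeadStudio is named per the submitters' processing notes, and whether background was corrected is not stated there. The deposited series matrix holds log2 values with 1 distribution in all 8 columns and the rank order of the raw table, that is, quantile-normalised by the authors; it gave the same 35 members. Neither table has detection p-values, control probes or slide labels, so the number of arrays limits precision and slide batches were not tested. Probes were named through the platform annotation: 34885 have 1 gene, 18 several and 10378 none, and 34807 were updated through RefSeq gene identifiers.

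Intensities in the text are raw. For the gene lists, low values were raised to the 5th percentile of their array, converted to log2 and quantile normalised between arrays. The 22640 probes above the median of mean log2 were fitted with limma 3.58.1 in R 4.3.3 (lmFit, eBayes, no covariate), with Benjamini-Hochberg adjustment over all of them and a threshold of 0.05. In that fit 13.2% of probes were higher and 14.2% lower in tumor. A listed gene is represented by its brightest probe. The fit was tested on simulated data. Nothing says that the samples are separate animals, so the p-values may reflect technical spread only.

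Named are all members, list genes, and the probes just inside and outside the rule. Genes that missed it through a single sample were chosen after their values were seen. Members and lists were chosen with earlier results of these data known. Same-numbered samples of the groups deviated together at r = 0.061, -0.027, -0.145 and 0.078 across probes, so numbers were not treated as pairs. Alternatives were other limits, the series matrix, other scalings and background steps, no filter, array weights, the replicate block and leaving out samples.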

Additional observations from a re-analysis of the deposited data

Results flagged for a closer look

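In 70 groups of 4 values (35 members in each tissue), 3 held a sample far from the others, where chance gives about 3.5 (1 in 20). Gpnmb read 1467 in tumor 1, with the next tumor at 684. Slc1a4 read 144 in normal liver 3, with the next normal liver at 95.9. D17H6S56E-5 read 122 in normal liver 3, with the next at 89.4. Both values in normal liver 3 stayed under the lower limit of the rule.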

How the results depend on the processing

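The number of members depends on the limits: 6 probes passed at the 70th and 90th percentiles and 235 at the 80th for both. It was 35 to 49 without single samples, 54 without tumors 3 and 4 (chosen after seeing the data), 28 when the lowest tumor had to be at least 4 times the highest normal liver, and 35 with the series matrix. The median spread between tumors ranged from 1.53 to 2.29 over its alternatives. Of the 6201 probes changed between tumor and normal liver (2996 higher, 3205 lower), array weights gave 9680, with 5202 lower, and no normalisation between arrays gave 1551 higher. Leaving out single samples gave 4121 to 5626 in all, 2045 to 2752 higher and 2076 to 2910 lower, with the fewest without tumor 4, and these fits hold fewer samples. The replicate block gave 5076 probes (2514 higher, 2562 lower); the numbers are not pairs. No probe called in both fits changed direction in any of the 18 alternatives. Over all lists 110 genes rose and 48 fell, with 81 to 111 and 38 to 68 over 4 alternatives; counting all probes of these genes, 159 and 70 passed. Hepatocyte genes had 9 lower of 23, beside 15.3% of all tested genes, but 17 under median scaling and 22 without normalisation. Granulocyte and erythroid genes had 10 higher, but 4 without tumor 4. The cause of these shifts was not tested. Without detection values, members near background cannot be called absent in normal liver.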

Other observations

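Some transcripts were switched on in tumors 1 and 2 and stayed near the normal level in tumor 3. Igf2, described above, was among them. Mpo, myeloperoxidase, read 48.6 to 68.7 in normal liver and 1078, 919, 79.3 and 449 in tumors 1 to 4. Chil3, a chitinase-like protein of myeloid cells, read 61.0 to 128 in normal liver and 1819, 1625, 108 and 775 in tumors 1 to 4. Dlk1, a fetal hepatoblast gene, had the same order below the upper limit of the rule, at 63.7 to 79.5 in normal liver and 388, 284, 83.8 and 167 in tumors 1 to 4. Of the granulocyte and erythroid list, 10 of 15 tested genes were higher and 1 lower, beside 15.3% of all tested genes in each direction. By raw intensity 9 of those 10 were highest in tumor 1, the brightest tumor array. Without tumor 4 the limma fit called 4 higher and 0 lower.

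Among tumors 1 to 3, tumor 3 in turn had the most transcripts on in a single tumor. There were 87 probes off in every normal liver and on in exactly 1 of tumors 1 to 3. Of these, 61 were on in tumor 3, 23 in tumor 1 and 3 in tumor 2. Tumor 4 was left out of this count. Some of the 87 were also on there, since only 53 probes were on in exactly 1 of the 4 tumors. Sdcbp2, a syntenin family protein, was on in tumors 1 and 3 (1113 and 4914) and read 103 in tumor 2, beside 59.4 to 78.2 in normal liver. The remaining lists gave these counts by limma at an adjusted p under 0.05, beside 15.3% of all tested genes higher and 15.3% lower. Of 35 cell cycle genes 25 were higher and 1 lower, and of 24 xenobiotic and glutathione genes 11 and 1. Of 17 stellate cell and fibroblast markers 7 were higher and 5 lower, and of 19 endothelial markers 5 and 5 (3 higher without tumor 4). Of 8 biliary markers 0 passed in either direction by limma, also at an unadjusted p under 0.05 (smallest unadjusted p = 0.0993, at Sox9). Of 8 pancreas, gut and other tissue markers 1 was higher (Vil1, villin, at 2846 in tumor 1 and 139 to 736 in the other tumors, not passing without tumor 4).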
